A study of Mus musculus with 5 samples.

Results

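The macrophage antigen and Fc gamma receptor genes are 10 mouse genes that mark monocytes and macrophages: Adgre1, Csf1r, Fcgr1, Fcgr2b, Fcgr3, Ctss, Cd68, Cd14, Lyz2 and Ly86. They were chosen by name with earlier results of these data known, so counts set against all genes describe a list that was not blind to the values. Every probe set that the array's annotation maps to them was taken, 17 in all, among 18193 genes with a probe set. Their levels were compared in 32D cells, a mouse myeloid progenitor line that grows on interleukin-3 and can mature towards granulocytes. The cells had been stably transduced by retrovirus with 1 of 5 FLT3-ITD constructs, named ITD613, ITD78, ITD598, ITD602 and ITD611 in the labels, which do not say what the numbers stand for. FLT3 is a growth factor receptor with tyrosine kinase activity, and internal tandem duplications (ITD) in it, found in acute myeloid leukaemia, make it active without ligand. All 5 cell populations carried a construct and all were starved for 3 h and then given a tyrosine kinase inhibitor, not named in the labels, for 1 h. A population without a construct or without inhibitor was not analysed here, and the labels do not say whether a population was 1 clone. Each construct was read on 1 Affymetrix mouse expression array, so there is no replicate spread to test against, and differences are given as sizes without p-values.

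Macrophages carry surface receptors that bind antibody-coated particles, growth factor and bacterial products, and lysosomes that digest what they take up. The Fc gamma receptors bind the constant part of IgG. Fcgr1 and Fcgr3 encode activating receptors that signal through the common gamma chain Fcer1g, whereas Fcgr2b encodes the inhibitory receptor. Csf1r encodes the receptor for the macrophage growth factor CSF1, and Adgre1 encodes the adhesion receptor known as the F4/80 antigen. Many genes of this kind depend on the transcription factor PU.1, the product of Spi1.

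Values were log2 RMA values, on which a difference of 1 is 2-fold. Up to a level of 3.74, at least 100 probe sets of an array can hold exactly the same value; this is called the low range, and a difference that reaches into it has no firm size. A gene was kept where the highest value of its probe set reached 2.75, the 60th percentile of all values, and the probe set with the highest mean stood for the gene. Of the 10 genes, 6 passed: Adgre1, Csf1r, Fcgr1, Fcgr2b, Ctss and Lyz2. The 4 others, Fcgr3, Cd68, Cd14 and Ly86, stayed below 2.75 on all 5 arrays.

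Adgre1, Fcgr1, Ctss and Csf1r were the members with a range of at least 2-fold over the 5 arrays, 4 of 6, against 10.4% of the 9621 genes that passed. With low values raised to 3.74, Adgre1 and Fcgr1 kept a 2-fold range, 2 of 6, against 7.31% of these genes. Adgre1 and Fcgr1 also had a range of at least 2 on the log2 scale, as 1.85% of all genes did (0.998% with low values raised). In 5 of the 6 members, all but Lyz2, the lowest values were those of ITD613 and ITD78, a pattern held by 22.8% of all genes and the most common of the 10 possible pairs of lowest arrays. It held in 3 members (Adgre1, Fcgr1 and Fcgr2b) with low values raised, against 20.3%. This count was added after the values were seen.

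**Figure D1:**
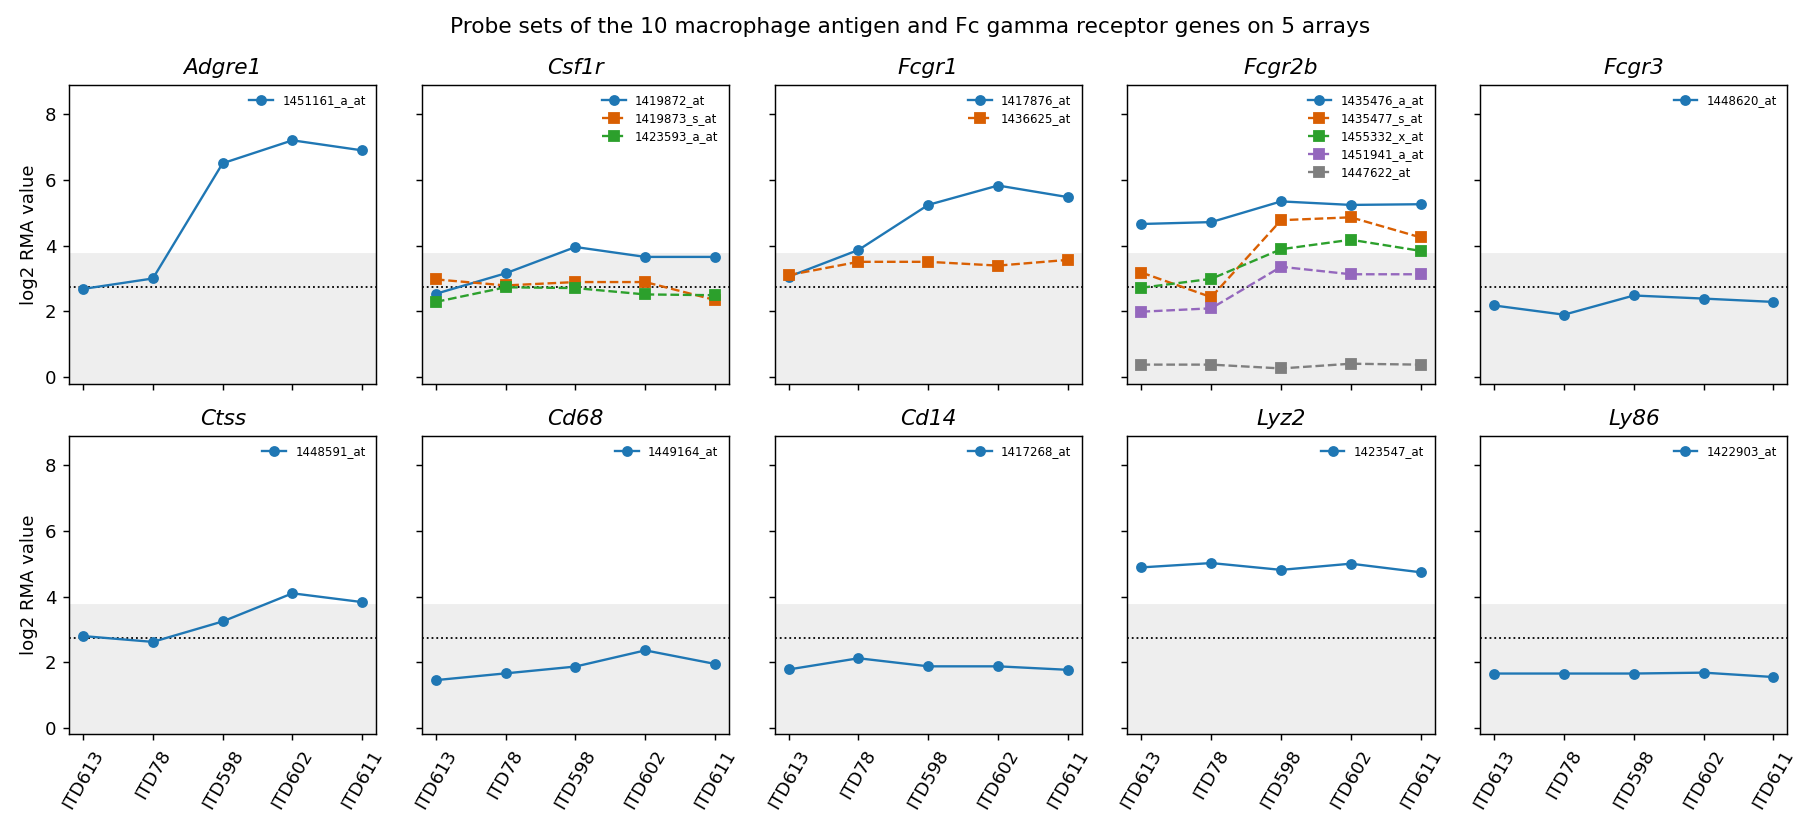
Log2 RMA values (vertical axis) of each probe set of the 10 genes on the 5 arrays (horizontal axis, 1 array per construct). Circles and full lines mark the probe set that stood for the gene, squares and broken lines the others, lines only join the points of 1 probe set, the dotted line is the filter value of 2.75, and the grey band ends at 3.74. Adgre1 and Fcgr1 lie lowest on ITD613 and ITD78, while Lyz2 stays between 4.74 and 5.02.

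Adgre1 varied most. It read 2.68 on ITD613 and 3.00 on ITD78, against 6.51 on ITD598, 7.21 on ITD602 and 6.91 on ITD611. Both low readings lay in the low range and the 3 high ones lay far above it. Among all genes, 0.52% had ITD613 and ITD78 lowest with the next array at least 1 above both, as had 2 of the 6 members, Adgre1 and Fcgr1. This rule was not set beforehand and follows the Adgre1 readings, so that Adgre1 meets it is no separate result. Its share with low values raised was not computed. The range of Adgre1 was 4.53, or 23.1-fold, and with low values raised to 3.74 it was still 3.47, or 11.1-fold. ITD613 and ITD78 differed from each other by only 0.32 in Adgre1, and ITD598, ITD602 and ITD611 spanned 0.70.

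Fcgr1, the high-affinity IgG receptor gene, had the next widest range. It read 3.06 on ITD613 and 3.87 on ITD78, against 5.25 on ITD598, 5.83 on ITD602 and 5.48 on ITD611. The arrays stood in the same order as for Adgre1, with ITD613 lowest and ITD602 highest, and the range was 2.78, or 6.87-fold (2.10, or 4.27-fold, with low values raised to 3.74). ITD78 stood nearer to the middle for Fcgr1 than for Adgre1: its reading lay 1.37 below the lowest of ITD598, ITD602 and ITD611, against 3.51 for Adgre1. The other Fcgr1 probe set, 1436625_at, read 3.11 on ITD613 and 3.51 on ITD78, against 3.51 on ITD598, 3.39 on ITD602 and 3.57 on ITD611. It was also lowest on ITD613, but all its values lay within 0.46 and below 3.74, so the 2-fold difference of Fcgr1 rests on 1 probe set.

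The 300 bases around the start site of Fcgr1 are shown with those of Ctss, Fcgr2b and Lyz2 in the next lines. These 4 are the members that passed the filter and had a promoter window to search. Adgre1, the member with the widest range, had no entry in the promoter set used. Csf1r and Cd14 lie on a chromosome that was left out of the search. The windows run from 250 bases before to 50 after the start site, from RefSeq on GRCm38.p6. The windows are chr3:96293920-96294219 (minus strand) for Fcgr1, chr3:95526536-95526835 (plus strand) for Ctss, chr1:170976022-170976321 (minus strand) for Fcgr2b and chr10:117282223-117282522 (minus strand) for Lyz2. Capitals mark GAGGAA, a form of the PU.1 site, on either strand and the STAT motif TTCNNNGAA.
Fcgr1: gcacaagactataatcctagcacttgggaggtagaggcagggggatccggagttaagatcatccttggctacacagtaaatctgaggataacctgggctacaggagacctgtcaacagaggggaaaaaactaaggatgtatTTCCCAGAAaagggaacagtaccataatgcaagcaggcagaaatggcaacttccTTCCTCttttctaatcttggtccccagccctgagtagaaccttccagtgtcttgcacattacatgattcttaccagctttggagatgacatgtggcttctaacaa
Ctss: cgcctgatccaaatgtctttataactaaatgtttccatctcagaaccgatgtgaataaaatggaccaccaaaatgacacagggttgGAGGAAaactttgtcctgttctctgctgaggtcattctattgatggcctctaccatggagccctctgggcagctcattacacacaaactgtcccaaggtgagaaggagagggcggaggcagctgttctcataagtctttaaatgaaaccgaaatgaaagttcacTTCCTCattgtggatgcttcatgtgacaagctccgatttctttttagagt
Fcgr2b: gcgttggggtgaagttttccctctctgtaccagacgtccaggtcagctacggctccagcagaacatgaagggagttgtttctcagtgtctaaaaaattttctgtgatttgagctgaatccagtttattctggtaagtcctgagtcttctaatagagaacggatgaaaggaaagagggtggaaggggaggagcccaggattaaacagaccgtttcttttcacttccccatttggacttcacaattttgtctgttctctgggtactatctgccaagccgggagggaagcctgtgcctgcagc
Lyz2: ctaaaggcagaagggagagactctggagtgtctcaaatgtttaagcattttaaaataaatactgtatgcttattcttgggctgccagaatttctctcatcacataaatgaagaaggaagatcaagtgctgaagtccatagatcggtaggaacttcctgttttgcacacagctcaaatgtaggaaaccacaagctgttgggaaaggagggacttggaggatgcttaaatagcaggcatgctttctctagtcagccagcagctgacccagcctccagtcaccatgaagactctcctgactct
The letters GAGGAA occurred once in the Fcgr1 window and at 2 places in the Ctss window, and were not found in those of Fcgr2b and Lyz2. Among the 7 members searched (Cd68, Ctss, Fcgr1, Fcgr2b, Fcgr3, Ly86 and Lyz2), 4 held GAGGAA (Cd68, Ctss, Fcgr1 and Fcgr3). Fcgr3 has 2 overlapping windows, so that counted by promoter 5 of 8 held it, while 28.3% of the 32851 promoters searched did. The STAT motif was found in the Fcgr1 window alone among these 8, and in 8.30% of all promoters. The motifs TGAGTCA (AP-1), TGTGGT (RUNX) and TATAAA were each found in 1 of the 8 promoters: those of Cd68, Lyz2 and Ctss in that order, against 5.20%, 16.8% and 13.6% of all promoters. The AP-1 motif occurred at 2 places in the Cd68 window. Both strands were searched, and no marked matches overlapped in the windows shown. Other forms of the PU.1 site were not searched, so a window without GAGGAA may still hold one. These matches are letters in a window, and binding was not measured.

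Fcgr2b, the inhibitory receptor gene, gave a different size on each of its probe sets, and the same arrays were lowest on each that passed. The probe set that stood for the gene, 1435476_a_at, read 4.66 on ITD613 and 4.72 on ITD78, against 5.35 on ITD598, 5.24 on ITD602 and 5.26 on ITD611. Its range was 0.69, short of 2-fold, and every value lay above 3.74. On 1435477_s_at the readings were 3.18 on ITD613 and 2.43 on ITD78, against 4.78 on ITD598, 4.87 on ITD602 and 4.25 on ITD611. That range was 2.43, the widest of the Fcgr2b probe sets, and ITD78 rather than ITD613 was lowest. With low values raised to 3.74 it was still 1.13.

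A further pair of Fcgr2b probe sets lay lower. The probe set 1455332_x_at read 2.72 on ITD613 and 2.99 on ITD78, against 3.89 on ITD598, 4.18 on ITD602 and 3.84 on ITD611. The probe set 1451941_a_at read 1.99 on ITD613 and 2.09 on ITD78, against 3.36 on ITD598 and 3.13 on both ITD602 and ITD611. The fifth, 1447622_at, did not exceed 0.40. So 3 of the 4 Fcgr2b probe sets that passed ranged over at least 2-fold and the brightest did not. Raising low values left a range of 0.44 on 1455332_x_at and of 0 on 1451941_a_at, so 1435477_s_at alone of the 4 kept a 2-fold range. The endings _s_at and _x_at mark probe sets that can bind more than 1 transcript, and Fcgr2b and Fcgr3 are alike in the parts that bind IgG, so the readings of these 2 genes may not be separate. Which transcripts each probe set binds was not tested.

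Fcgr3, the low-affinity activating receptor gene, read 2.18 on ITD613 and 1.90 on ITD78, against 2.48 on ITD598, 2.39 on ITD602 and 2.29 on ITD611. The same arrays were lowest, but the gene did not pass the filter and the range of 0.58 lies in the low range. Fcgr4, a further activating receptor gene, stayed between 1.58 and 1.90.

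**Figure D2:**
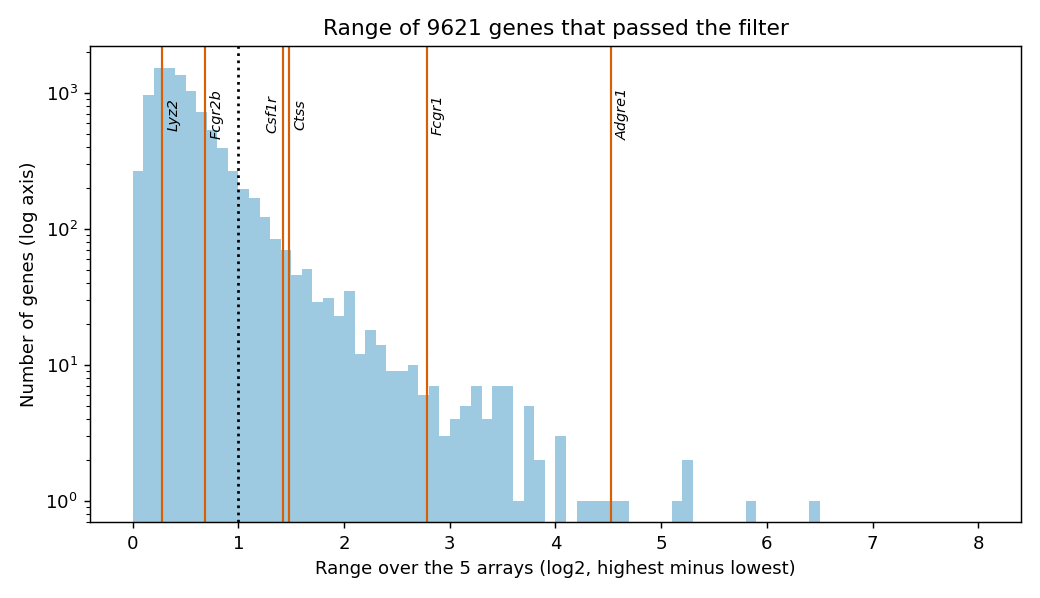
Histogram of the range over the 5 arrays (log2, highest minus lowest) for the 9621 genes that passed the filter, on a logarithmic count axis. Lines mark the 6 members that passed and the dotted line a range of 1; Adgre1 lies at 4.53, Fcgr1 at 2.78, and Fcgr2b and Lyz2 left of the dotted line.

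Csf1r, which encodes the CSF1 receptor, read 2.54 on ITD613 and 3.16 on ITD78, against 3.96 on ITD598 and 3.66 on both ITD602 and ITD611. ITD613 and ITD78 were again lowest, but 4 of the 5 readings lay at or below 3.74. The ITD602 reading was a value that 118 probe sets of that array had in common, and the ITD613 reading one that 215 had in common. With low values raised to 3.74 the range of 1.43 shrank to 0.22. The other Csf1r probe sets had other orders: 1419873_s_at was highest on ITD613 at 2.97, against 2.35 on ITD611, and 1423593_a_at was lowest on ITD613 at 2.29, against 2.73 on ITD78. The size of the Csf1r difference rests on 1 of 3 probe sets in the low range.

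Among the lysosomal members, Ctss, which encodes the protease cathepsin S of antigen-presenting cells, read 2.80 on ITD613 and 2.62 on ITD78, against 3.24 on ITD598, 4.10 on ITD602 and 3.83 on ITD611. Here ITD78 was lowest and ITD598 lay closer to ITD613 than to ITD602. The range was 1.48, and 0.36 with low values raised. Cd68, a lysosomal membrane glycoprotein gene, read 1.46 on ITD613 and 1.66 on ITD78, against 1.87 on ITD598, 2.36 on ITD602 and 1.95 on ITD611. These readings kept the same lowest and highest arrays as Adgre1, with a range of 0.91, but all lay below the filter.

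Lyz2, the lysozyme gene of myeloid cells, did not follow this order. It read 4.89 on ITD613 and 5.02 on ITD78, against 4.82 on ITD598, 5.00 on ITD602 and 4.74 on ITD611. ITD78 was highest and ITD613 lay in the middle, within a range of 0.28, all above 3.74. Lyz1, a near copy of Lyz2, read 5.97 on ITD613 and 6.31 on ITD78, against 5.94 on ITD598, 6.06 on ITD602 and 5.73 on ITD611 on its brightest probe set, 1436996_x_at. It too was highest on ITD78 and lowest on ITD611. Probe sets of the 2 lysozyme genes may bind both transcripts.

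The genes of bacterial product recognition were low. Cd14, the co-receptor for lipopolysaccharide, read 1.78 on ITD613 and 2.12 on ITD78, against 1.88 on both ITD598 and ITD602 and 1.77 on ITD611. Ly86, which encodes the MD-1 partner of the receptor Cd180, stayed between 1.55 and 1.68, and its readings on ITD613, ITD78 and ITD598 were 1 and the same value. Neither gene can be ordered across the constructs at these levels.

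Between pairs of arrays, 2-fold differences of members lay between ITD613 or ITD78 and the arrays ITD598, ITD602 and ITD611. ITD613 was at least 2-fold below ITD602 in 4 of the 6 members (Adgre1, Csf1r, Fcgr1 and Ctss), against 3.92% of all genes. It was below ITD611 in the same 4 genes, against 2.83%, and below ITD598 in 3, all but Ctss, against 2.85%. ITD78 showed fewer. ITD602 was at least 2-fold above ITD78 in 3 members (Adgre1, Fcgr1 and Ctss), against 1.52% of all genes, ITD611 was in the same 3, against 0.873%, and ITD598 was in 2, Adgre1 and Fcgr1, against 0.935%. No member differed 2-fold between ITD613 and ITD78, where 2.96% of all genes did. Nor did any member differ 2-fold between ITD611 and ITD602, ITD611 and ITD598, or ITD602 and ITD598, where 0.218%, 0.125% and 0.260% of all genes did. With low values raised, the members below by 2-fold were Adgre1 and Fcgr1 alone in each of these comparisons of ITD613 or ITD78 with ITD598, ITD602 and ITD611. The Csf1r and Ctss calls were lost, and the share of all genes was then 2.81% for ITD613 below ITD602, 1.94% below ITD611 and 1.91% below ITD598, and 1.01%, 0.499% and 0.551% for ITD78 in the same order. These pairs share arrays and are not independent of each other.

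**Figure D3:**
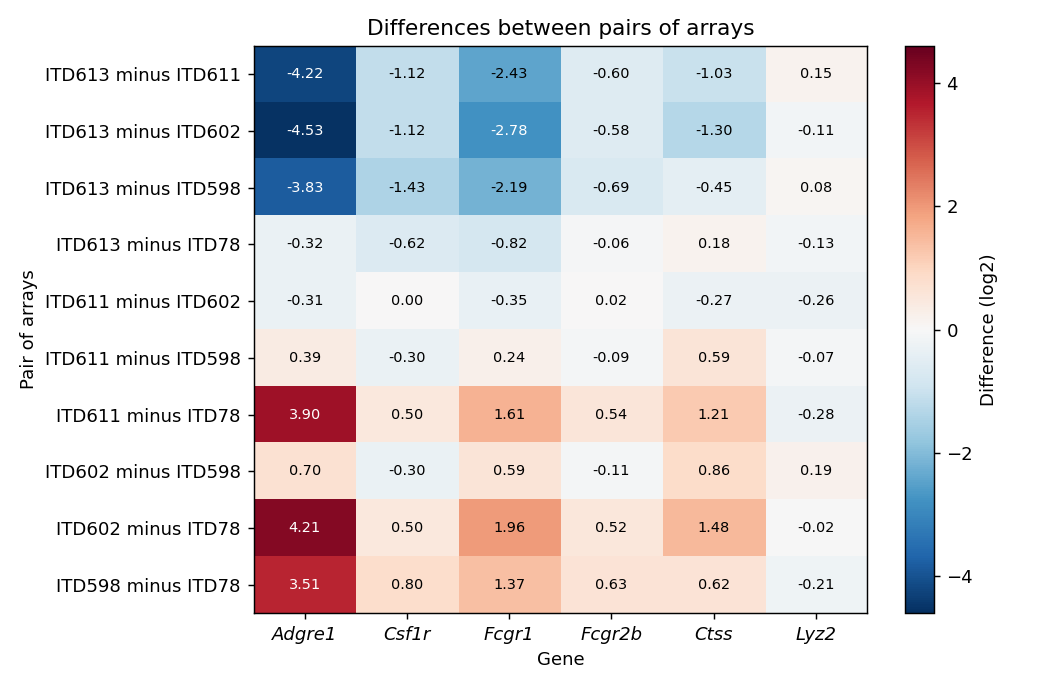
Differences (log2) of the 6 members that passed, for the 10 pairs of arrays, first-named array minus the second. Blue cells are lower and red cells higher on the first-named array; Adgre1 has the widest span, from -4.53 (ITD613 minus ITD602) to 4.21 (ITD602 minus ITD78), and the Lyz2 column stays within 0.28 of 0.

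Against the mean of the other 4 arrays, ITD613 was at least 2-fold lower in 3 of the 6 members, Adgre1 (-3.22), Fcgr1 (-2.05) and Csf1r (-1.07), against 2.35% of all genes, and higher in 0, against 3.18%. ITD78 was lower in 2, Adgre1 (-2.83) and Fcgr1 (-1.03), against 0.457%, and higher in 0, against 0.374%. The Csf1r call on ITD613 was lost with low values raised (-0.06), with the mean of its probe sets (-0.39) and without ITD598 (-0.96). The Fcgr1 call on ITD78 was lost with median centring, with the mean of its probe sets, and without ITD598, ITD602 or ITD611. ITD602 was higher in 2, Adgre1 (2.44) and Fcgr1 (1.42), against 0.676%. ITD598 and ITD611 were higher in 1 each, Adgre1 (1.56 and 2.05), against 0.301% and 0.291%. The Fcgr1 call on ITD602 was lost with the mean of probe sets (0.70) and without ITD613 (0.97), and the Adgre1 call on ITD598 without ITD613 (0.81) or ITD78 (0.91). No member was 2-fold lower on ITD598, ITD602 or ITD611, as 0.146%, 0.551% and 0.322% of all genes were.

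The 6 members had a median difference, taken the same way, of -0.86 on ITD613 and -0.64 on ITD78, against 0.53, 0.65 and 0.49 on ITD598, ITD602 and ITD611. Over all 9621 genes the same medians lay between -0.03 and 0.03. Over all 10 members without a filter the medians were -0.49 on ITD613 and -0.35 on ITD78, against 0.16 on ITD598, 0.29 on ITD602 and 0.19 on ITD611. In RNA from whole cultures, fewer cells holding RNA of these genes and less of it per cell cannot be told apart.

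The partner genes of the receptors gave a mixed record. The list of other Fc receptor genes had 13 genes, 11 with a probe set, and 3 passed. Fcer1g, the common gamma chain through which Fcgr1 signals, read 8.36 on ITD613 and 8.47 on ITD78, against 8.57 on both ITD598 and ITD602 and 8.22 on ITD611. It was thus nearly level where Fcgr1 ranged over 2.78. Fcer1a, the IgE-binding chain that shares Fcer1g with it, read 3.96 on ITD613 and 0.72 on ITD78, against 0.67 on ITD598 and 0.72 on both ITD602 and ITD611, the reverse of Fcgr1 on ITD613. Most of these Fcer1a readings lie in the low range, and with low values raised the range was 0.23.

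Of 10 Fc receptor signalling genes that passed, among 13 with a probe set, ITD613 was at least 2-fold lower in 2 and higher in 0. No other array reached 2-fold in any. Over all genes, 2.35% were lower and 3.18% higher on ITD613. Lat2, an adaptor of Fc receptor signalling, read 2.95 on ITD613 and 3.77 on ITD78, against 4.33 on ITD598, 4.71 on ITD602 and 4.46 on ITD611. With low values raised its range was 0.97, short of 2-fold, so its call was lost. Of the 3 Lat2 probe sets, 2 lay below the mean of the other arrays on ITD613. Ptpn6, the phosphatase SHP-1 recruited by inhibitory receptors, read 6.30 on ITD613 and 7.21 on ITD78, against 7.49 on ITD598, 7.30 on ITD602 and 7.49 on ITD611. ITD613 was lowest for both, and for Ptpn6 ITD78 lay close to ITD602. The median of the list was -0.17 on ITD613.

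Among 9 CSF1 receptor ligand and signalling genes that passed, among 14 with a probe set, none was 2-fold from the mean of the other 4 on any array. On ITD613, 2.35% of all genes were lower and 3.18% higher. Tyrobp (DAP12), the adaptor of several myeloid receptors, read 5.80 on ITD613 and 5.70 on ITD78, against 6.80 on ITD598, 6.88 on ITD602 and 6.52 on ITD611. Spi1, which encodes PU.1, read 3.63 on ITD613 and 3.94 on ITD78, against 4.41 on ITD598, 4.70 on ITD602 and 4.46 on ITD611. The order of the arrays for Spi1 was that of Adgre1 and Fcgr1, with a range of 1.07. Its ITD613 reading lay in the low range, and with low values raised the range was 0.96, short of 2-fold.

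Among 11 LPS and Toll-like receptor genes that passed, among 15 with a probe set, none reached 2-fold against the other arrays either. Of all genes, 2.35% were lower and 3.18% higher on ITD613. The list's median was -0.39 on ITD613 and -0.19 on ITD78. Tlr2, a receptor gene for bacterial lipoproteins, read 2.31 on ITD613 and 2.61 on ITD78, against 3.47 on ITD598, 3.66 on ITD602 and 3.32 on ITD611. Tlr4, the lipopolysaccharide receptor gene, read 2.29 and 2.67 on ITD613 and ITD78, against 3.33, 3.13 and 3.27 on ITD598, ITD602 and ITD611. Ly96, whose product MD-2 binds lipopolysaccharide with Tlr4, read 2.12 and 2.19 on ITD613 and ITD78, against 3.00, 2.89 and 2.45. Cd180, the partner of Ly86, read 3.77 and 4.14 on ITD613 and ITD78, against 4.41, 4.39 and 4.48. In these 4 genes ITD613 was lowest and ITD78 next, but with low values raised only Cd180 kept a range above 0, of 0.71.

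**Figure D4:**
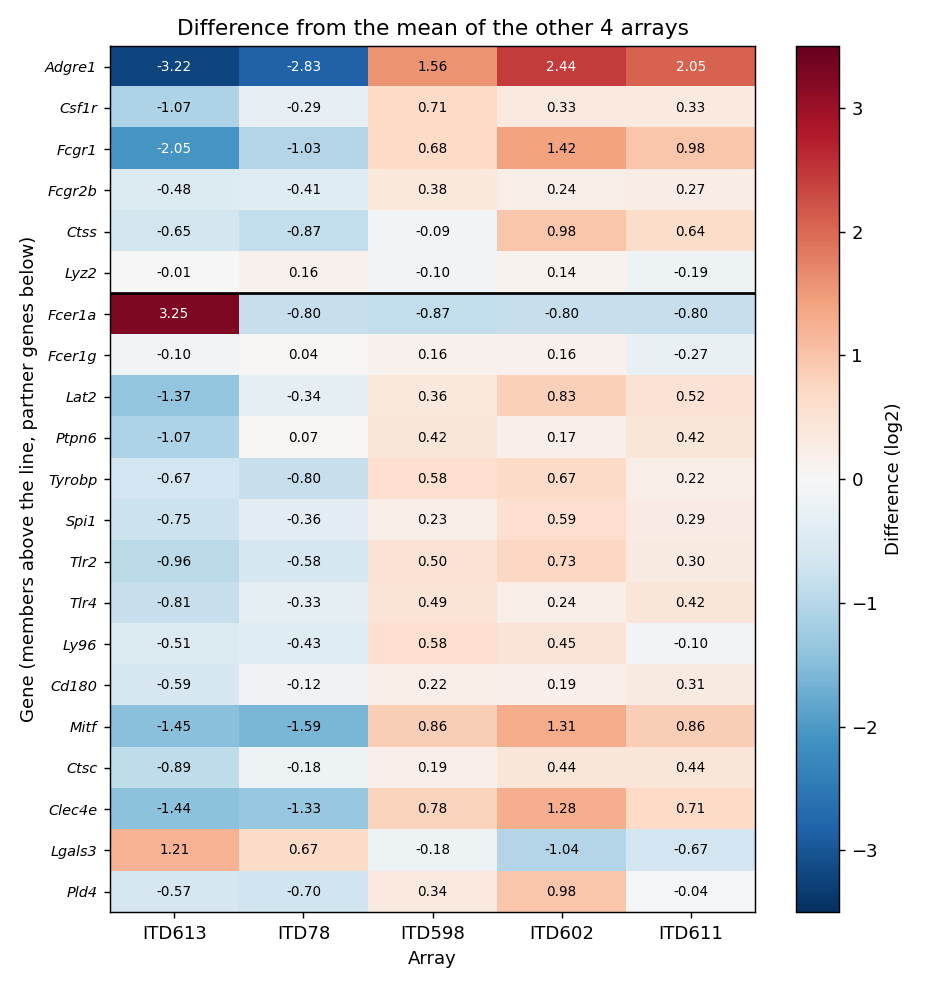
Difference (log2) of each gene from the mean of the other 4 arrays, by array; members that passed the filter stand above the line and the named partner genes below it. Blue is lower and red higher than the other arrays: Mitf and Clec4e share the blue ITD613 and ITD78 columns of Adgre1, and Fcer1a and Lgals3 are red on ITD613.

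Of 13 lysosomal genes that passed, among 17 with a probe set, 1 was at least 2-fold lower on ITD613, 1 lower on ITD78 and 1 higher on ITD602. The shares of all genes were 2.35%, 0.457% and 0.676% in that order. Each call was Mitf, a regulator of lysosomal and pigment cell genes. Mitf read 1.90 on ITD613 and 1.79 on ITD78, against 3.75 on both ITD598 and ITD611 and 4.11 on ITD602. Its range of 2.32 shrank to 0.37 with low values raised. Of the 2 Mitf probe sets, only 1 lay below the mean of the other arrays on ITD613. Ctsc, which encodes the protease that activates granule enzymes, read 8.92 on ITD613 and 9.50 on ITD78, against 9.79 on ITD598 and 9.99 on both ITD602 and ITD611. Its range was 1.06, with all values far above the low range.

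The other monocyte and macrophage genes were mostly below the filter: of 32 with a probe set, 8 passed. Clec4e (Mincle), a receptor for microbial glycolipids, read 3.68 on ITD613 and 3.77 on ITD78, against 5.45 on ITD598, 5.85 on ITD602 and 5.40 on ITD611. It was at least 2-fold lower on ITD613 and on ITD78 and higher on ITD602, and its range with low values raised was 2.11. Lgals3 (galectin-3) went the other way, at 5.53 on ITD613 and 5.10 on ITD78, against 4.41 on ITD598, 3.73 on ITD602 and 4.02 on ITD611. Pld4 read 2.27 on ITD613 and 2.17 on ITD78, against 3.00, 3.51 and 2.70 on ITD598, ITD602 and ITD611, all in the low range. The median of this list was -0.06 on ITD613 and 0.02 on ITD78, close to those of all genes. ITD613 and ITD78 were the lowest arrays in 2 of the 8, or 25.0%, near the 22.8% of all genes. In the Fc receptor signalling list they were lowest in 6 of 10, and in the LPS and Toll-like list in 6 of 11. Of those 6 LPS and Toll-like genes, Tlr2, Tlr4 and Ly96 had all values in the low range. In the CSF1 receptor list they were lowest in 4 of 9, in the lysosomal list in 4 of 13 and among the other Fc receptor genes in 0 of 3.

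The profile of each of the 2 members with the widest range was set against 9615 other genes by the root mean square difference of values centred on the gene's mean over the 5 arrays. The genes nearest to Adgre1 were Cd53 (0.20), Ablim1 (0.30), Atp10a (0.34), Evi5 (0.50) and P2ry14 (0.57). Cd53, a tetraspanin of leukocytes, read 0.94 on ITD613 and 1.43 on ITD78, against 4.39 on ITD598, 5.17 on ITD602 and 5.00 on ITD611. P2ry14, a receptor gene for UDP-sugars, read 1.16 on ITD613 and 2.20 on ITD78, against 4.50 on ITD598, 4.82 on ITD602 and 4.69 on ITD611. All 5 had both low readings below 2.75 and the 3 others above 4. The genes nearest to Fcgr1 were Clec5a (0.11), Csf2rb2 (0.14), Mdfic (0.16), Asz1 (0.16) and Tiam1 (0.18). Clec5a, a myeloid receptor that signals through Tyrobp, read 0.86 on ITD613 and 1.76 on ITD78, against 3.08 on ITD598, 3.56 on ITD602 and 3.06 on ITD611, all in the low range. Csf2rb2, an interleukin-3 receptor chain gene, read 5.12 and 5.62 on ITD613 and ITD78, against 7.16, 7.81 and 7.66, all above it. These are descriptions over 5 arrays.

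**Figure D5:**
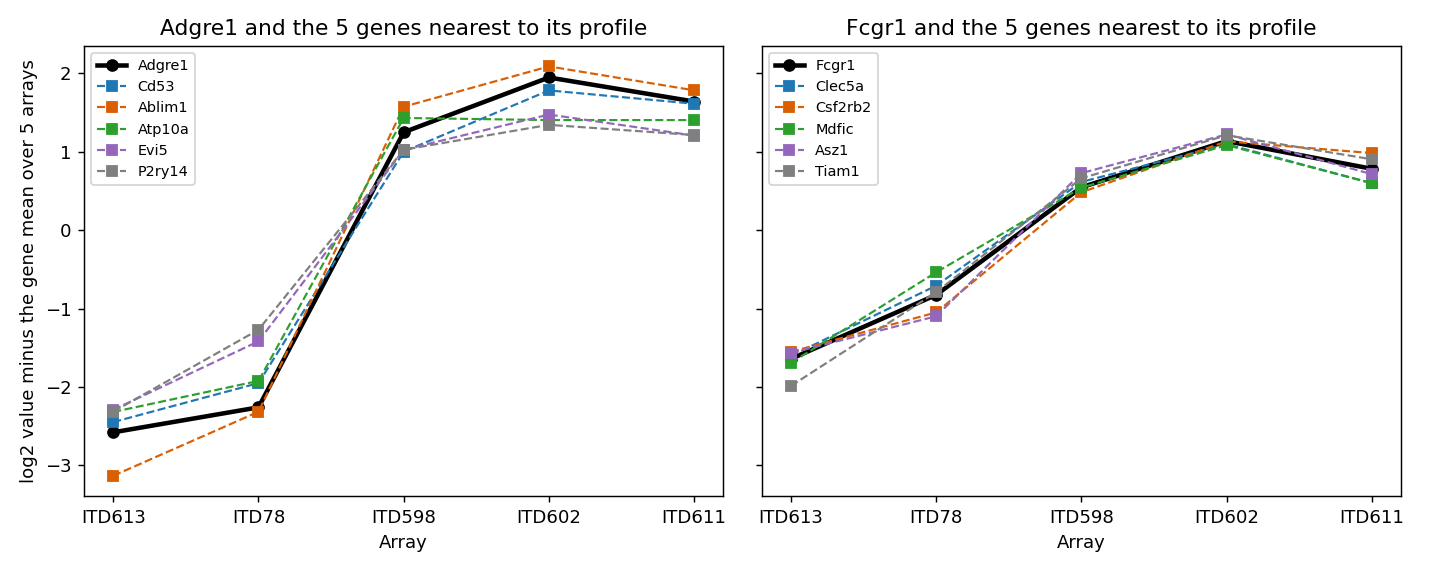
Profiles of Adgre1 (left) and Fcgr1 (right), black, with the 5 genes nearest to each, as log2 values minus the gene's mean over the 5 arrays (vertical axis) by array (horizontal axis). All profiles are low on ITD613 and ITD78; the nearest are Cd53 to Adgre1 (0.20) and Clec5a to Fcgr1 (0.11).

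Markers of the line and of other cell types were read beside these results. Ptprc (CD45), the common leukocyte antigen, read 7.41 on ITD613 and 8.31 on ITD78, against 8.93 on ITD598, 8.999 on ITD602 and 8.96 on ITD611, while the progenitor genes Kit and Cd34 lay below the filter on every array. Mouse Flt3 lay between 1.74 and 1.99, below the filter. Of 17 neutrophil granule genes with a probe set 10 passed, and the summed log2 level over the 17 was 56.5 on ITD613 and 48.8 on ITD78, against 70.1 on ITD598, 66.6 on ITD602 and 55.7 on ITD611. Genes below the filter are part of this sum. Of the 10, 5 were 2-fold lower on ITD78, 3 on ITD613 and 3 on ITD611, against 0.457%, 2.35% and 0.322% of all genes. Higher were 6 on ITD598, 4 on ITD602 and 1 on ITD613, against 0.301%, 0.676% and 3.18%. Directions differed: on ITD613, Ctsg lay at -2.38 and S100a9 at 0.83 from the mean of the other 4. With low values raised S100a8 ranged over 3.87, against 3.47 for Adgre1. Of 8 erythroid genes 6 passed, with a summed log2 level of 46.3 on ITD613 and 42.0 on ITD78, against 35.6, 34.8 and 35.3 on ITD598, ITD602 and ITD611. On ITD613, 4 of these 6 were at least 2-fold higher (Slc4a1, Klf1, Gata1 and Gfi1b), against 3.18% of all genes, and 0 were lower. Klf1 read 10.0 on ITD613 and 8.44 on ITD78, against 7.36 on ITD598, 6.68 on ITD602 and 7.08 on ITD611. Of 10 myeloid progenitor genes 6 passed, with a summed log2 level of 45.1 on ITD613 and 46.3 on ITD78, against 48.9 on ITD598, 50.03 on ITD602 and 49.9 on ITD611. These sums were lowest on the same arrays as Adgre1. Of the 6 genes, 3 were at least 2-fold lower on ITD613, against 2.35% of all genes. They were Ptprc, Csf2rb2 and Csf2rb, the common beta chain gene of the interleukin-3 receptor family. Csf2rb read 6.71 on ITD613 and 7.003 on ITD78, against 7.96 on ITD598, 8.39 on ITD602 and 8.54 on ITD611. Of 7 megakaryocyte genes 6 passed, with a summed log2 level of 28.5 on ITD613 and 37.2 on ITD78, against 33.0, 32.2 and 31.5 on ITD598, ITD602 and ITD611. ITD613 was lowest and ITD78 highest in this sum. The platelet genes Pf4 and Selp were at least 2-fold lower on ITD613, at 3.09 and 2.99. That was 2 of 6, against 2.35% of all genes. Pf4 read 5.99 to 6.51 and Selp 5.49 to 6.12 on the other arrays. Vwf had the widest range of this list. It read 3.91 on ITD613 and 6.56 on ITD78, against 2.96 on ITD598, 3.47 on ITD602 and 3.12 on ITD611. Gp9 read 6.79 on both ITD613 and ITD78, against 5.87, 5.46 and 5.26. The median difference of the list was -0.05 on ITD613. Of 9 mast cell and basophil genes 4 passed, with a summed log2 level of 25.9 on ITD613 and 23.5 on ITD78, against 25.6, 25.8 and 25.3. Of 11 lymphoid genes 1 passed, of 8 dendritic cell genes 2 and of 8 stromal and endothelial genes 2, and their summed log2 levels lay between 16.4 and 17.4, 16.1 and 17.1, and 16.4 and 17.2 over the 5 arrays. The part of these shifts in the member values was not tested. A date-like string in the array titles is the same on 4 arrays and another on ITD602, whose run and construct cannot be told apart. Without ITD602, the Adgre1 difference from the mean of the remaining arrays was -2.79 on ITD613 and -2.36 on ITD78.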

How the data were processed

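The authors deposited log2 values made with RMA, per the submitters' processing notes; the version and chip definition are not given in the sources used here. That the scale is log2 was taken from the deposited values, whose highest (13.45) exceeds the natural log of the scanner maximum (11.09). Its zero point is not stated. The table held 45101 probe sets and 5 arrays, 1 per construct, with array medians from 1.99 to 2.06, and 0 columns lacked a sample. The platform annotation gave 1 gene symbol for 34945 probe sets and several for 932, which were left out with the 64 controls.

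A difference of at least 1 (log2) was counted as 2-fold. The low range ends at 3.74, the highest value held by at least 100 probe sets of an array. With 1 array per construct nothing was tested; precision is limited by that number. The members, the 15 gene lists and the motifs were chosen with earlier results of these data known. The text names all members and up to 4 genes per list with the widest range (at least 2-fold). Ms4a3 and the mast cell and basophil genes Mcpt8, Cpa3 and Gata2 fell under this rule, but their values are not given above. The text also names the 5 genes nearest in profile to each of 2 members, and fixed partners (Fcer1g, Cd180, Ly96, Lyz1, Flt3). Fcgr4, Kit, Cd34 were added after their values were seen. The rule of difference from the other arrays was run on simulated data with independent noise and a shift on ITD613 alone. Those data lacked the shared low values and a second low array, so they do not show how reliable the calls are here. Python 3.11.15, numpy 2.4.6 and pandas 2.3.3 were used.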

Additional observations from a re-analysis of the deposited data

How the results depend on the processing

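The counts of members, their median differences, each member's difference from the other arrays and the counts for pairs of arrays were recomputed with probe sets averaged per gene, with the probe sets named _x_at or _s_at dropped, with no filter, with a stricter filter (70th percentile, 3.83), with low values raised to 3.74, with quantile normalization, with median centring, with a 1.5-fold threshold for the counts, and without each array. The alternatives for the pair counts and for the count of members lowest on ITD613 and ITD78 were chosen after seeing the data; the count of lowest members needs both arrays and was not run without either. Counts over partner lists, nearest profiles and motifs were not recomputed. The share of all genes was recomputed only with low values raised, for ranges, lowest arrays and pairs. Counts of members under the other settings, those without an array included, therefore stand without such a share. No called difference of a member from the other arrays changed sign. With low values raised, 2 members (Adgre1 and Fcgr1) kept a 2-fold range, 3 members were lowest on both ITD613 and ITD78, and the median differences were -0.30 on ITD613, -0.26 on ITD78, 0.30 on ITD598, 0.29 on ITD602 and 0.14 on ITD611. Members 2-fold apart then numbered 2 between ITD613 and ITD602 and 2 between ITD613 and ITD611. Without the filter the median differences were -0.49, -0.35, 0.16, 0.29 and 0.19 on ITD613, ITD78, ITD598, ITD602 and ITD611. With averaged probe sets the ITD613 median was -0.66, 1 member was lower on ITD78 and 1 was higher on ITD602. Median centring left 1 member lower on ITD78 and 2 higher on ITD611, and the 1.5-fold threshold gave 3 higher on ITD598 and 3 on ITD611, and differences of 2 members between ITD613 and ITD78, 5 between ITD598 and ITD78, 1 between ITD611 and ITD598 and 3 between ITD602 and ITD598.

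The mean of the other arrays includes the other low array, so leaving arrays out moved these values. The ITD613 median ran from -1.08 (without ITD78) to -0.75 (without ITD602), and that of ITD78 from -0.85 (without ITD613) to -0.52 (without ITD602). Those of ITD598, ITD602 and ITD611 ran from 0.23 to 0.66, from 0.51 to 0.83 and from 0.33 to 0.69. On ITD613, 2 to 3 members were lower (2 without ITD598). On ITD78 it was 1 without ITD598, ITD602 or ITD611, and 3 without ITD613. Members higher on ITD598 numbered 0 without ITD613 or ITD78 and 2 without ITD602. Members higher on ITD602 ran from 1 (without ITD613) to 3 (without ITD598 or ITD611), and on ITD611 from 1 to 2 (without ITD598 or ITD602). The count with a 2-fold range was 3 without ITD613 and 4 otherwise. No paired analysis was possible because each construct has 1 array. The causes of these shifts beyond the construction of the settings were not tested.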
